A study of Mus musculus with 61 samples.

Results

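SALL1 sites that carried the co-activator p300 but no SMAD4 were described in mouse microglia. The sites are peaks of the SALL1 list of wild-type (WT) microglia that overlapped a WT p300 peak by at least 1 bp and overlapped no WT SMAD4 peak. Of 15410 WT SALL1 peaks, 2715 met this rule. The SALL1, SMAD4 and strain lists used here are shorter than the peak numbers in the study's text, so no peak means only that none was in these lists. A further 1581 carried p300 and SMAD4, 674 carried SMAD4 without p300, and the others carried neither, 8411 of them in an open-chromatin window of the study and 2029 outside one. The sites were thus chosen by peak presence in the 3 WT lists, and SALL1, p300 and SMAD4 binding in WT are given as description only. The scores of these peaks, an enrichment value of the authors that ranks peaks within a list, ran from 10 to 421 for SALL1 (median 75) and from 11 to 419 for p300 (median 74). The sites lay nearest to 1877 genes, of which 1388 had 1 site and 187 had 3 or more.

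Chromatin immunoprecipitation with sequencing (ChIP-seq) was available for 61 samples of mouse brain, 30 of them inputs that were not used here. H3K27ac, acetylated lysine 27 of histone H3, was measured in whole-cell microglia sorted for CD45, CD11b and CX3CR1 and in nuclei sorted for PU1 (microglia), NeuN (neurons) or Olig2 (oligodendrocyte lineage). WT C57/Bl6 mice were compared with C57/Bl6 mice that had a homozygous deletion of a distant, microglia-specific enhancer of Sall1 (EKO), with 2 libraries per group and cell type. SALL1 was measured in WT, EKO and 2 wild-derived strains with a wild-type genotype, PWK and Spret (SPRET), again with 2 libraries each. The deletion is carried in the germ line and so in every cell of the animal. SMAD4 peaks came from 2 WT libraries and from 2 libraries whose titles name a conditional SMAD4 deletion while their file and inputs are named for the EKO, and these are called the libraries labelled mutant. One p300 library was labelled microglia and the others PU1 nuclei, and the SALL1 libraries were labelled microglia where the methods of the study describe SALL1+ PU1+ nuclei. The labels do not say whether libraries came from separate animals, so p-values measure only the spread between these libraries, which may be technical. The methods of the study describe adult male mice in general and younger mice for the conditional SMAD4 deletion, and the labels give no age.

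SALL1 is a zinc-finger transcription factor of the Spalt family that, among macrophages, is a hallmark of microglia. SMAD4 is the common partner of the receptor-activated SMADs and carries TGF-beta signals to DNA. p300 is a histone acetyltransferase that writes H3K27ac, a mark found at active enhancers and promoters. Enhancers of macrophages are opened by PU.1 with partners such as IRF, C/EBP, RUNX, MAF, MEF2 and AP-1 factors, each of which recognises a short DNA motif.

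The sequences of 5 sites are shown for the results below, being 2 whose H3K27ac fell in EKO, 1 whose H3K27ac rose, the site of the highest SALL1 and p300 scores, and the site with the highest SMAD4 score in the libraries labelled mutant. All are given as the plus strand of mm10, read from the RefSeq copy of that build, and capitals mark every match to any of the 13 motifs named further on. The site at chr12:80580741-80580994 lies in an intron of Galnt16, and the site near Sall1 at chr8:89134446-89134681 is intergenic. The Apoe site at chr7:19699670-19699909 lies in the promoter, the F830045P16Rik site at chr2:129514230-129514453 in an intron of that gene, and the site near Pag1 at chr3:9884920-9885128 between genes.
Galnt16, fell: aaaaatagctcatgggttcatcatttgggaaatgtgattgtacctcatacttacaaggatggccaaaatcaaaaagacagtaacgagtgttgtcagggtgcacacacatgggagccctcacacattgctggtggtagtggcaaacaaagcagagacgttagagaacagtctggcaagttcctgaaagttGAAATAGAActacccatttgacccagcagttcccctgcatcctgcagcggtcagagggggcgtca
Sall1, fell: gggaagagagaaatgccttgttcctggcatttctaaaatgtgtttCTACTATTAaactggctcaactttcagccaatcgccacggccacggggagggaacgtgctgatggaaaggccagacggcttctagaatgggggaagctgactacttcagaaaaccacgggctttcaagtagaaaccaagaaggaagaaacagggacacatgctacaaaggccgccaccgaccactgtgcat
Apoe, rose: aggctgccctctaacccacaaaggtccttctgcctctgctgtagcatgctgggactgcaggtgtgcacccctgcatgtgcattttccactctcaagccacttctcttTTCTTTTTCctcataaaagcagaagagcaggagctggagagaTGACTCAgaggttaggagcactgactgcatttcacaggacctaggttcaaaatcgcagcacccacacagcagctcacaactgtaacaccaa
F830045P16Rik, highest scores: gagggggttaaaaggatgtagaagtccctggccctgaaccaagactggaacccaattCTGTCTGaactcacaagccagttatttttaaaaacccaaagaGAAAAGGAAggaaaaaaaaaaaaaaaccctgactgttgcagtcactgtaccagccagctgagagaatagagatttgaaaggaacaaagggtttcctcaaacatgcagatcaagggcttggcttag
Pag1, SMAD4 in the libraries labelled mutant: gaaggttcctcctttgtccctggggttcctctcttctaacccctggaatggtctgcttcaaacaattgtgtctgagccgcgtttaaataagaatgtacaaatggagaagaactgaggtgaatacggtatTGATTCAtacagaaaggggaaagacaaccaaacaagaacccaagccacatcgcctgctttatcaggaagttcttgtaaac
The capitals are an IRF match in Galnt16, a MEF2 match in Sall1, IRF and AP-1 matches in Apoe, a single SMAD element and an IRF match in F830045P16Rik, and an AP-1 match in Pag1. A match is a description of letters and not a bound site.

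The sites were mostly away from promoters. By their centre, 1352 (49.8%) fell in introns, 981 (36.1%) between genes and 271 (9.98%) in promoters, taken as 1000 bp before to 100 bp after a transcription start, with 42 in untranslated regions, 51 in noncoding exons and 18 in coding exons. Promoters held 9.61% of sites with p300 and SMAD4 and 9.14% of all SALL1 sites. Of the sites with a window, 82.2% lay over 3000 bp from the nearest transcription start, beside 81.2% of all SALL1 sites. The sites were 209 to 398 bp wide (median 230 bp), and 674 (24.8%) had another such site within 10 kb. Their median GC content over the central 201 bp was 47.3%, between the 50.2% of sites with p300 and SMAD4 and the 44.3% of open sites with neither.

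Some sites lay close to the limits of the rule. The smallest p300 overlaps among the sites were 4 bp (near Gm4841), 6 bp (near 1700064M15Rik) and 7 bp (near Pde3b), and SALL1 peaks near Stab1, Pdgfb and S1pr4 fell outside with p300 peaks 2, 2 and 4 bp away. Still, 2619 of the 2715 sites (96.5%) were covered over at least 50% of their length by the p300 peak, with a median overlap of 198 bp. The nearest WT SMAD4 peaks were 26 bp (near Marcks), 32 bp (near 1700028P15Rik) and 51 bp (near Abhd12) away, and SALL1 and p300 sites near Atp13a3, Gabpb1 and Ly86 were outside with SMAD4 overlaps of 3, 9 and 40 bp. Only 132 sites (4.86%) had a WT SMAD4 peak within 1000 bp.

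Motifs were searched on both strands in the 201 bp at each site's centre and in the same length at the centre of 114887 open windows with no SALL1 peak. PU.1 (GAGGAAGT) was present at 16.1% of the sites against 8.77% of those windows, the PU.1-IRF composite (GGAANTGAA) at 9.21% against 3.99%, and IRF (GAAANNGAA) at 13.8% against 7.54%. MEF2 (CTANNNNTA) was at 21.2% against 14.9%, C/EBP (TTGCNNAA) at 13.4% against 8.95%, RUNX (TGTGGTT) at 10.6% against 5.28% and MAF (TGCTGAC) at 9.65% against 5.07%. These 7 motifs of macrophage factors thus had higher shares at the sites, as at open SALL1 sites with neither factor, than in those windows. Shares for AP-1 (TGANTCA) were 7.44% and 7.53%, for MITF/TFE (TCACGTG) 2.47% and 2.25%, and for the AT-rich SALL motif (AATAATA) 1.80% and 1.35%, while the GC box (GGGCGGGG) was at 1.47% against 6.90%. The composite can overlap the PU.1 and IRF motifs, so these shares are not separate. At open SALL1 sites with neither factor, PU.1 was at 13.4%, the composite at 8.83% and IRF at 13.5%. C/EBP was at 13.9% there, RUNX at 6.93% and MAF at 5.53%, and MEF2 is given below. The higher shares over windows without SALL1 were therefore not particular to the sites. RUNX, MAF and PU.1 shares were lower at those open SALL1 sites than at the sites, while C/EBP was slightly higher.

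SMAD letters had a lower share at the sites than at the SALL1 sites with SMAD4, a direction favoured by the choice of classes by SMAD4 peaks. The SMAD palindrome (GTCTAGAC) was found at 1 of 2715 sites (0.0368%), beside 1.08% of sites with p300 and SMAD4, 1.93% of sites with SMAD4 alone and 0.271% of open windows without SALL1. The single SMAD element (CAGACAG) was at 7.51% of the sites, 18.5% of those with p300 and SMAD4, 21.8% of those with SMAD4 alone and 7.52% of the open windows. MEF2 letters were at 21.2% of the sites, 13.7% of those with p300 and SMAD4 and 20.6% of those with SMAD4 alone. Open SALL1 sites with neither factor had them at 24.0%. No test was run on these shares.

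In the microglia H3K27ac table, which gives tags per 1000 bp window scaled to a depth of 10000000 tags per library, 2692 sites had a window and 2358 passed the filter of a mean above 16 tags, while 334 did not pass it and 23 had no window. Library depths were 9963444 to 24357857 tags. EKO library 1 stood apart with a median level of 6.41 on the log2(tags + 1) scale over all tested windows, while the WT libraries were at 5.57 and 5.20 and the other EKO library at 4.95. Libraries were therefore quantile-normalized before the limma fit over 55285 windows, and the values as deposited are given beside it. Promoter windows of 6 of 8 microglia markers, P2ry12 highest, were above 16 tags in all 4 libraries. None of the markers of other cells was above 16 tags in all 4 libraries. By their mean, however, the border macrophage marker Mrc1 (52.8 tags) and the oligodendrocyte lineage marker Mog (20.7 tags) were above 16. Only 3 of 5 neuron, 5 of 6 oligodendrocyte lineage, 2 of 4 astrocyte, 3 of 6 border macrophage and 0 of 4 lymphocyte markers had a promoter window in the table. The summed promoter tags of the 3 border macrophage markers with a window were 34.1 and 30.9 in WT and 224 and 86.6 in EKO, and whether this moved the results below was not tested. All 29 tested windows nearest to Sall1 were called lower in EKO.

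**Figure D1:**
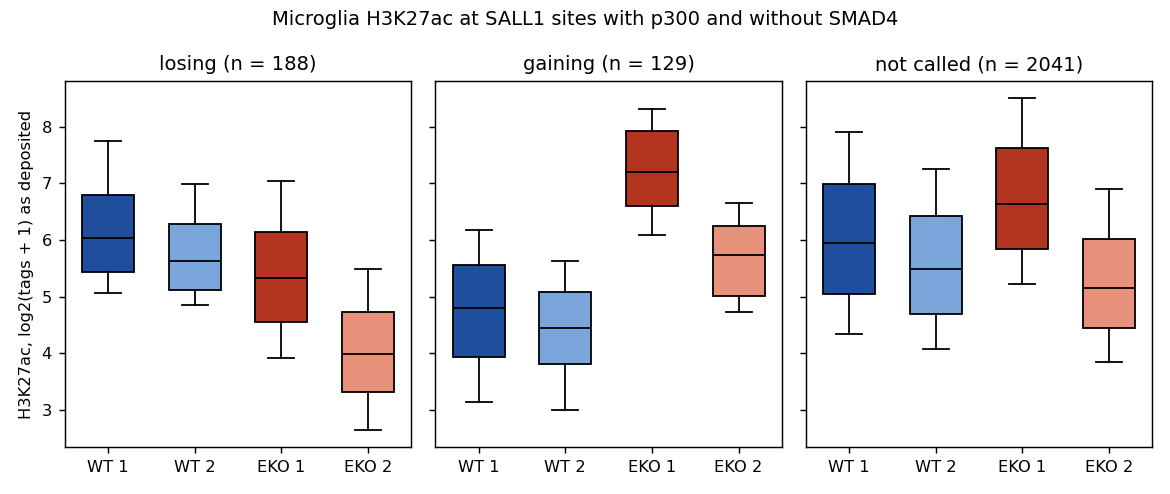
Deposited H3K27ac level, as log2(tags + 1), of the tested sites in each microglia library, split by the call of the limma fit. Boxes span the middle 50% with the median as a line and whiskers run from the 10th to the 90th percentile. Sites called gaining had medians of 4.79 and 4.45 in WT and 7.20 and 5.74 in EKO, and EKO library 1 is the higher EKO library in every panel.

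H3K27ac fell at 188 of the 2358 tested sites in EKO and rose at 129 (limma, Benjamini-Hochberg adjusted p below 0.05 and fold above 2). Thus 7.97% lost the mark, beside 7.56% of all tested windows, and 5.47% gained it, beside 8.68%. The share that lost the mark was therefore close to the background, and the share that gained it was below it. The median log2 change (EKO minus WT) over the tested sites was −0.15, and −0.03 over all tested windows. On the values as deposited 2 sites fell and 4 rose, with 0.128% and 0.814% of all tested windows called in these directions, and the medians were 0.15 and 0.28. Relative to the median of all windows, the median of the sites was −0.12 on the quantile-normalized scale and −0.13 on the deposited scale (log2), although the sign of the median itself turned with the scaling.

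The number of calls differed when a library was left out, where the lone library of a group is assumed to vary like the other group. Without WT library 1, 0 sites were called in either direction, with 142 lower and 144 higher at an unadjusted p below 0.05 and a fold above 2 (limma). Without EKO library 1, 0 were called again, with 223 lower and 137 higher at the unadjusted p. Without WT library 2, 28 fell and 38 rose, and without EKO library 2, 94 fell and 40 rose. The sizes of the changes moved less, since 223 sites were below −1 and 149 above 1 on the log2 scale with all libraries, 222 and 162 without WT library 1, and 240 and 165 without EKO library 1. In bulk libraries, fewer cells with the mark and less of the mark per cell cannot be told apart.

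The median deposited level of the sites was 5.86 and 5.45 in the WT libraries and 6.58 and 5.1 in the EKO libraries (log2(tags + 1)), so the EKO libraries lay on both sides of WT. The difference of 0.18 between group means had p = 1 in a two-sided exact permutation test over the 4 libraries, where the smallest p is 0.333. Within each library the sites were lower than those with p300 and SMAD4, with differences of −0.94 and −0.83 in WT and −0.78 and −0.72 in EKO (log2). The gap was smaller in both EKO libraries than in both WT libraries, by 0.14, with the smallest p the exact permutation test allows (0.333). Against open sites with neither factor, the sites were higher by 0.59 and 0.51 in WT and by 0.38 and 0.34 in EKO, and the difference between genotypes was −0.19 (exact permutation p = 0.333). The classes were defined by WT peaks only, which can favour wider gaps in WT than in EKO. How far this choice enters the differences was not tested.

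**Figure D2:**
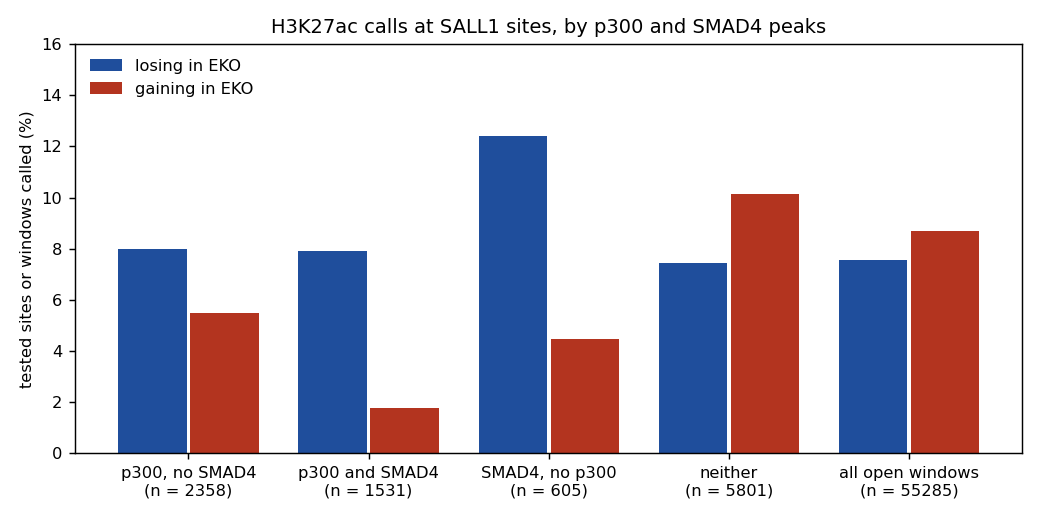
Share of tested SALL1 sites whose H3K27ac was called lower (blue) or higher (red) in EKO than in WT, by the WT p300 and SMAD4 peaks they carry, with all tested open windows at the right. Sites with p300 and without SMAD4 show 7.97% and 5.47%, and the share gaining is 1.76% with SMAD4 added and 10.1% with neither.

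The calls were then counted by the factors at the site. Of sites with p300 and SMAD4, 121 of 1531 fell (7.90%) and 27 rose (1.76%). Of sites with SMAD4 alone, 75 of 605 fell (12.4%) and 27 rose (4.46%), and of open sites with neither, 431 of 5801 fell (7.43%) and 587 rose (10.1%). Median log2 changes were −0.19, −0.24 and −0.01 in these classes. The difference of the shares between classes was not tested. The classes were also set side by side within 1 range of SALL1 score. Among peaks scored 118 to 421, 1.96% of the sites rose, beside 1.06% with p300 and SMAD4 and 4.48% with neither, and among peaks scored 10 to 46 these were 9.52%, 3.79% and 13.7%.

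Among the sites themselves, the shares called were counted by p300 score, with no test of their order. In the lowest quartile by p300 score (11 to 42), 66 of 451 tested sites rose (14.6%) and 47 fell (10.4%), and the median change was 0.15. The middle quartiles had 6.29% and 2.45% rising and 9.35% and 7.06% falling. In the highest quartile (117 to 419), 10 of 667 rose (1.5%) and 40 fell (6.0%), with a median of −0.22. Over the SALL1 score the shares also went down, from 9.41% rising and 12.7% falling in the lowest quartile to 1.82% and 4.10% in the highest. Median WT levels moved with the p300 score, from 28.5 tags in the lowest to 81.7 tags in the highest quartile. Of the 679 sites in each of these quartiles, 451 and 667 were tested, and by SALL1 score 457 and 659. Sites low in WT could pass the filter only through EKO. The part of the level and of the filter in these shares was not tested. Over all tested windows 7.56% fell and 8.68% rose.

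**Figure D3:**
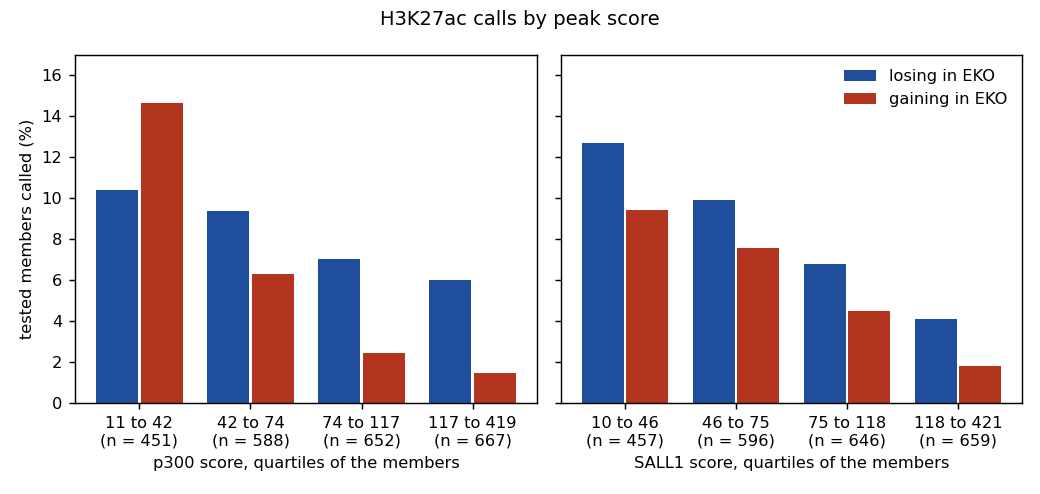
Share of tested sites called lower (blue) or higher (red) in EKO in quartiles of the sites by p300 score (left) and by SALL1 score (right), with score limits and the number tested below each pair. The share gaining goes from 14.6% to 1.5% over the p300 quartiles, and fewer sites were tested in the lowest quartile than in the highest.

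The calls were also counted by position. At promoters 11 of 251 tested sites fell (4.38%) and 12 rose (4.78%), in introns 109 of 1169 fell (9.32%) and 55 rose (4.70%), and between genes 64 of 840 fell (7.62%) and 61 rose (7.26%). Sites over 3000 bp from a transcription start fell at 8.89% and rose at 5.80%, and nearer sites at 4.04% each. Of sites found only in the WT open-chromatin list, as its name in the table was read, 7 of 23 tested fell (30.4%), and of the sites in both lists 7.75%. Sites that also lay in all WT NeuN and Olig2 regions fell at 5 and rose at 2 of 131.

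The 10 sites with the largest losses lay 2.83 to 90.4 kb from the nearest transcription start. The largest loss was at the intergenic site chr1:152168159-152168459, 78.1 kb from 1700025G04Rik, with 254 and 175 tags in WT and 7.03 and 10.4 in EKO. Its log2 change was −4.86 ± 0.42 (SE, n = 2 per group, limma adjusted p = 5.8e-08), and −4.47 as deposited. At the Galnt16 intron, in a gene for an enzyme that starts mucin-type O-glycans, tags were 47.2 and 51.8 in WT and 1.00 and 2.24 in EKO, a change of −4.69 ± 0.68 (limma adjusted p = 3.69e-05). These were the 2 sites that also passed as deposited, and the EKO libraries lay far below the WT libraries at both.

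The Sall1 site, 90.4 kb upstream of the gene, had 53.4 and 37.8 tags in WT and 3.01 and 2.99 in EKO, a change of −3.93 ± 0.60 (limma adjusted p = 6.4e-05). The study describes the deleted enhancer as lying farther upstream than this site. A SALL1 peak was listed there in SPRET and not in PWK, and the site was in called PU1 regions of both WT and of neither EKO library. It was the one site nearest to Sall1, out of 11 SALL1 peaks.

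An intron of Slc1a3, which encodes a glutamate transporter best known from astrocytes, had 33.2 and 31.9 tags in WT and 1.00 and 5.23 in EKO, a change of −3.52 ± 0.74 (limma adjusted p = 0.00154). Unlike the Sall1 site, it lay in called PU1 regions of both WT and both EKO libraries. Those regions had folds over input of 20.6 and 24.2 in WT and 10.1 and 9.58 in EKO. The number of sites nearest to this gene was 3 and 2 of them fell, as did 14 of all 19 tested windows nearest to it. No window at the promoter of an astrocyte marker passed 16 tags in all libraries (above). An intron of Rtn1, a reticulon of the endoplasmic reticulum, went from 75.5 and 61.7 tags to 12 and 5.23, a change of −3.52 ± 0.41 (limma adjusted p = 2.71e-06). An intron of Col5a1, a collagen chain, went from 39.4 and 27.9 tags to 0 and 4.48, a change of −3.85 ± 0.80 (limma adjusted p = 0.00131). The other 4 of the 10 largest losses lay nearest to 1700095B10Rik, 4930447M23Rik, Pqlc2, a lysosomal amino acid transporter, and Teddm1a, with changes from −4.35 to −3.11. At Teddm1a the EKO libraries were far apart, at 24.1 and 2.24 tags, and the change as deposited was −2.41. The 1700095B10Rik site changed by −3.34 as deposited. It lay in no called PU1 region of any library, and in NeuN regions of both EKO libraries. In all 10 the WT and EKO libraries did not overlap, which was required for naming them.

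**Figure D4:**
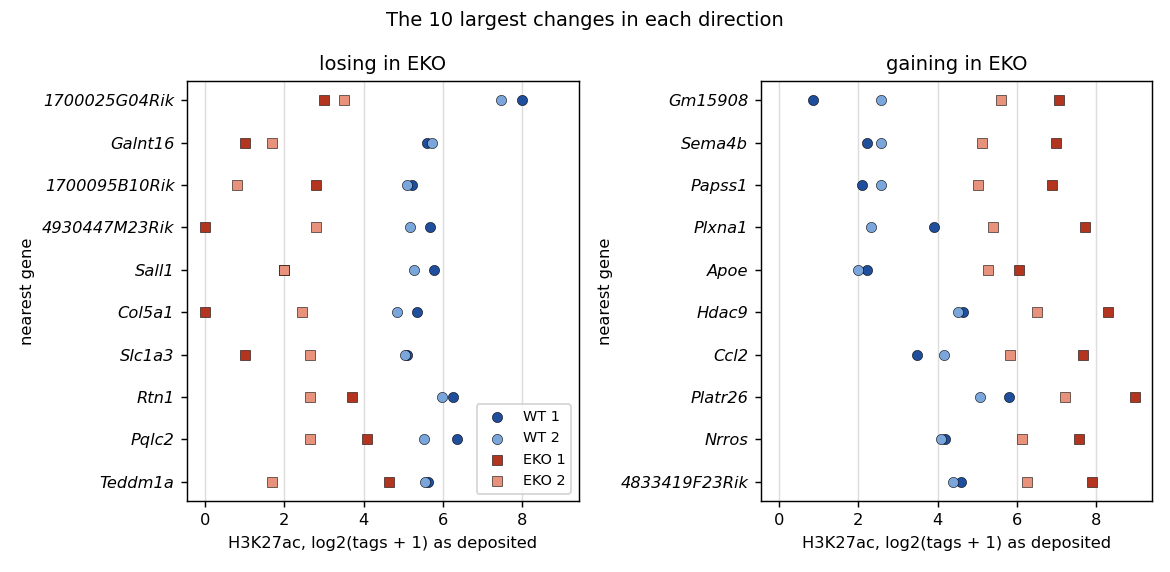
Deposited H3K27ac level, as log2(tags + 1), of the 10 sites with the largest losses (left) and gains (right), 1 per nearest gene, with WT libraries as circles and EKO libraries as squares. The 2 EKO values at Sall1 (3.01 and 2.99 tags) lie on top of each other. EKO library 1 is above EKO library 2 at all 10 gaining sites.

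Gains were led by the intergenic site near Gm15908, with 0.82 and 4.98 tags in WT and 131 and 47.8 in EKO, a change of 4.01 ± 0.54 (SE, n = 2 per group, limma adjusted p = 1.63e-05). The site 6.83 kb from Sema4b, a membrane-bound semaphorin, had 3.69 and 4.98 tags in WT and 124 and 33.6 in EKO (3.05 ± 0.44, limma adjusted p = 3.16e-05). A site in an intron of Chchd6 and nearest to the start of Plxna1, a semaphorin receptor, went from 14.0 and 3.98 to 211 and 41.1 tags (2.97 ± 0.41, limma adjusted p = 2.06e-05). The site 132 kb from Papss1, a sulfate donor synthase, went from 3.28 and 4.98 to 116 and 31.4 tags (2.99 ± 0.45, limma adjusted p = 5.9e-05). These 4 also passed as deposited. None of their WT values was above 14 tags, and the EKO values were 31.4 tags or more. Of the 129 sites that rose, 38 had a WT mean of at most 16 tags, these 4 and the Apoe site below among them, and so passed the filter only through EKO. Of the 188 that fell, 45 had an EKO mean of at most 16 tags and passed only through WT.

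The Apoe promoter site, 0.561 kb before the start of the gene for the lipid carrier apolipoprotein E, had 3.69 and 2.99 tags in WT and 65.2 and 37.3 in EKO. Its change was 2.93 ± 0.50 (limma adjusted p = 0.000221), and 3.54 as deposited (limma adjusted p = 0.0764). Of the 8 tested windows nearest to Apoe, 6 were called higher. Repeats made up 75.4% of the Apoe site in the genome sequence, beside a median of 10.6% over the sites. The Apoe site also lay in called Olig2 regions of both WT and both EKO libraries. The site 11.6 kb from Ccl2, a chemokine that attracts monocytes, went from 10.3 and 16.9 to 202 and 55.2 tags (2.51 ± 0.32, limma adjusted p = 9.04e-06). The site 5.54 kb from Nrros, whose product holds latent TGF-beta1 on the microglial surface, went from 17.2 and 15.9 to 189 and 69.4 tags (2.38 ± 0.28, limma adjusted p = 3.12e-06). The site 194 kb from Hdac9, a class IIa histone deacetylase that binds MEF2 factors, went from 23.8 and 21.9 to 313 and 90.4 tags (2.53 ± 0.24, limma adjusted p = 2.77e-07). The remaining 2, near Platr26 and 4833419F23Rik, changed by 2.39 and 2.28. Every one of the 10 gaining sites had both EKO values above both WT values, which was required for naming them.

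Over all called sites, both EKO values lay beyond both WT values, on both scales, at 119 of the 188 that fell and 128 of the 129 that rose. These are 63.3% and 99.2% of the called sites, beside 66.8% and 98.3% of all called windows, which were 7.56% and 8.68% of those tested. The medians of the sites that fell were 6.04 and 5.64 in WT and 5.33 and 3.99 in EKO as deposited, and those of the sites that rose were 4.79 and 4.45 in WT and 7.20 and 5.74 in EKO.

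Genes of homeostatic microglia, which are expressed in the resting brain, were taken first. Of 36 such genes, 18 had 32 of the sites nearest to them, all tested, of which 3 fell and 0 rose, with 0 called either way as deposited, and their median change was −0.41. All 693 tested windows nearest to these genes had a median of −0.21, with 80 falling and 55 rising. Beside the Sall1 site, a site in an intron of Cask 15.9 kb from Gpr34, a lysophospholipid receptor, had 116 and 56.7 tags in WT and 58.2 and 26.9 in EKO, a change of −1.28 ± 0.27 (limma adjusted p = 0.00171). At the promoter of P2ry13, a purine receptor, tags were 244 and 143 in WT and 238 and 60.5 in EKO, and the change of −0.88 ± 0.18 passed the adjusted p (0.00143, limma) but not the 2-fold limit. A site 1.75 kb from Rhob, a small GTPase, had 328 and 168 tags in WT and 249 and 95.6 in EKO, a change of −0.84 ± 0.17 (limma adjusted p = 0.00108), also within 2-fold. The third site that fell, in an intron of the Fc receptor-like gene Fcrls and named after its value was seen, had 37 and 32.8 tags in WT and 33.1 and 14.9 in EKO (−1.01 ± 0.36, limma adjusted p = 0.0465). The deposited values of the groups overlapped at these 4 sites.

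Genes of TGF-beta signalling had 18 sites near 7 of 30 genes, and of these 1 fell and 2 rose, with a median of 0.11, and 0 were called as deposited. All 390 tested windows nearest to these genes had a median of 0.10, with 12 falling and 68 rising. In an intron of Tgfbr2, the type II TGF-beta receptor, tags were 270 and 189 in WT and 221 and 47.8 in EKO, a change of −1.39 ± 0.20 (limma adjusted p = 3.08e-05). The sites nearest to Tgfbr2 numbered 5, with changes from −1.39 to 0.20. Beside the Nrros site, the site in an intron of Ttll5 nearest to Tgfb3, a TGF-beta ligand, rose from 17.2 and 6.97 to 55.2 and 25.4 tags (1.21 ± 0.43, limma adjusted p = 0.0434). An intron of Smad3, a receptor-activated SMAD, had 288 and 156 tags in WT and 694 and 298 in EKO, a change of 0.84 ± 0.15 (limma adjusted p = 0.000387) that was within 2-fold. The sites nearest to Smad3 numbered 6, with changes from −1.02 to 0.84 and 0 called, so the values at one gene lay on both sides of 0.

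Innate activation and cytokine genes had 37 sites near 19 of 32 genes. Of 34 tested, 0 fell and 2 rose, with a median of −0.02, and the 2 were the Ccl2 site and the promoter of Cd14, a co-receptor for lipopolysaccharide, which went from 172 and 116 to 671 and 183 tags (1.06 ± 0.15, limma adjusted p = 3.03e-05). Of the 282 tested windows nearest to these genes 29 fell and 43 rose. The site near Tlr2, a receptor for bacterial lipoproteins, had 123 and 71.7 tags in WT and 363 and 85.9 in EKO (0.67 ± 0.20, limma adjusted p = 0.0188), within 2-fold. A site in Tnfrsf1b, a TNF receptor, had a change of −0.64 ± 0.15 (limma adjusted p = 0.00344), also within 2-fold.

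Lineage transcription factors had 49 sites near 19 of 39 genes, of which 41 were tested, 1 fell (Sall1) and 2 rose. Of the 737 tested windows nearest to these genes 70 fell and 65 rose. The site 5.02 kb from Fos went from 27.5 and 17.9 to 134 and 47.0 tags (1.49 ± 0.29, limma adjusted p = 0.000736), and the site 163 kb from Jun from 31.6 and 29.9 to 124 and 53.0 tags (1.09 ± 0.27, limma adjusted p = 0.00598). Fos and Jun encode partners in AP-1. A site 203 kb from Runx1, a haematopoietic factor, had 295 and 170 tags in WT and 961 and 281 in EKO, a change of 0.95 ± 0.13 (limma adjusted p = 1.89e-05) just within 2-fold. It carried a SMAD4 peak in the libraries labelled mutant, as did the Tlr2 site.

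Phagocytosis and adhesion genes had 36 sites near 22 of 38 genes, with 2 falling and 2 rising of 32 tested, beside 14 falling and 33 rising of the 303 tested windows nearest to these genes. An intron of Mertk, a receptor for apoptotic cells, rose from 83.3 and 55.7 to 321 and 99.3 tags (1.14 ± 0.19, limma adjusted p = 0.000212), and the site near C3ar1, the C3a receptor, from 23.4 and 10.9 to 110 and 35.1 tags (1.54 ± 0.34, limma adjusted p = 0.00242). An intron of Itga9, an integrin chain, fell from 57.1 and 56.7 to 45.2 and 19.4 tags (−1.24 ± 0.30, limma adjusted p = 0.00473), and 2 of the 6 tested sites nearest to Itga9 fell. Lipid and disease-associated genes had 14 sites, of which the Apoe site alone was called, while of the 216 tested windows nearest to these genes 31 fell and 61 rose. The site in Cd9, a tetraspanin, changed by −0.74 ± 0.15 (limma adjusted p = 0.00098), the site in a coding exon of Itgax, an integrin of dendritic cells, by −0.79 ± 0.28 (limma adjusted p = 0.0439) and the site near Tyrobp, an adaptor of immune receptors, by −0.52 ± 0.15 (limma adjusted p = 0.0179), all within 2-fold.

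Border macrophage genes had 17 sites near 7 of 20 genes, 6 of them near Ccr1 and 6 near Maf. Of 15 tested, 1 fell and 0 rose, with a median of −0.32, while the 145 tested windows nearest to these genes had a median of 0.38, with 43 rising and 2 falling. The site that fell, 19.0 kb from the chemokine receptor gene Ccr1, went from 140 and 111 to 117 and 41.8 tags (−1.07 ± 0.21, limma adjusted p = 0.000853). All 6 sites near Ccr1 had changes below 0 (−1.07 to −0.26). The site near Maf, 125 kb from its start, had 18.1 and 14.9 tags in WT and 63.2 and 26.9 in EKO (0.91 ± 0.36, limma adjusted p = 0.0721). Siglec1 and Stab1, scavenger and adhesion receptors, had changes of 0.39 ± 0.26 and −0.22 ± 0.23 (limma adjusted p = 0.298 and 0.532).

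Antigen presentation genes had 5 sites, of which 1 fell, beside 2 falling and 4 rising of the 62 tested windows nearest to these genes. It lay at Ctss, a cathepsin that trims the invariant chain, and went from 112 and 58.7 to 107 and 20.9 tags (−1.04 ± 0.29, limma adjusted p = 0.0119). The deposited values of the groups overlapped there, and the call was lost with a pseudocount of 4 or without the filter. B2m, the light chain of MHC class I, changed by −0.56 ± 0.11 (limma adjusted p = 0.001), Cd86 by 0.48 ± 0.17 (limma adjusted p = 0.0435) and Cd74 by 0.13 ± 0.20 (limma adjusted p = 0.686). Of 16 neuron markers, Syt1 alone had a site, at 286 kb (−0.27 ± 0.52, limma adjusted p = 0.754), and of 10 astrocyte markers Slc1a3 alone. No site lay nearest to any of 16 oligodendrocyte lineage or 13 lymphocyte markers. Of the 31 tested windows nearest to the oligodendrocyte lineage markers, 9 fell and 0 rose, with a median of −0.73. Of the 13 nearest to the lymphocyte markers, 1 fell and 7 rose, with a median of 1.68. Whether other cells in the libraries entered these changes was not tested.

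The most sites of any gene were 8, reached by 4 genes. Near Marcks, a substrate of protein kinase C, all 8 were tested, with a median change of −0.62 and a range from −0.91 to 1.28, and 1 rose. Near Klf4, a zinc-finger factor, 4 of 8 were tested (−0.31 to 0.49), near Tmsb4x, an actin-binding peptide, 7 of 8 (−0.80 to 0.44), and near A630001O12Rik all 8 (−0.57 to 0.48), with 0 called for these 3. A further 7 genes had 7 sites, of which 9430078K24Rik, Apbb1ip, Blnk and Gpr34 come first by name. For Apbb1ip, an adaptor of Rap1 and integrins, the median was −0.55 and 1 of 7 fell, for Gpr34 −0.42 and 1 of 7 fell, for Blnk, a B-cell and macrophage linker, −0.13, and for 9430078K24Rik −0.24, both with 0 called. Of these 8 genes, 3 had a called site, and each of the 3 had 1.

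Of the sites with the highest SALL1 or p300 scores, 0 of 9 were called. Over all tested windows 7.56% fell and 8.68% rose, so 9 sites are too few to set them apart from the background. The site in F830045P16Rik, with the highest SALL1 score (421) and p300 score (419), had 249 and 151 tags in WT and 291 and 82.9 in EKO (−0.56 ± 0.17, limma adjusted p = 0.0185), within 2-fold. The next by SALL1 score, in Ppp1r21 (414), Hpgd (402), near Apbb1ip (389) and near Rnase10 (376), changed by 0.63, −0.91, −0.91 and −0.54. Hpgd, which degrades prostaglandins, passed the adjusted p (0.00651, limma) and not the 2-fold limit, as did the Apbb1ip site (0.00379, limma). The next by p300 score, at Tex14 (391), near Ccr1 (373), near Eapp (369) and at Rnu11 (363), changed by −0.19, −0.56, −0.0028 and 0.08, with 0 called.

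A SALL1 peak was listed at part of the sites in the other strains. In PWK, 612 sites (22.5%, 95% Wilson interval 21.0 to 24.2%) had a SALL1 peak, and in SPRET 460 (16.9%, 15.6 to 18.4%), where the intervals cover counting error only. Over all SALL1 sites the shares were 15.6% and 10.3%, and at sites with p300 and SMAD4 30.6% and 25.0%. These sites made up 16.9% of the 3627 PWK peaks and 20.5% of the 2245 SPRET peaks. Both strains had a peak at 190 sites (7.0%). Of the 7 SALL1 peaks of EKO, 1 overlapped one of the sites.

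The share in other strains differed over the WT SALL1 score. It was 4.57% in PWK in the lowest quartile of the sites by score and 48.9% in the highest, and 2.95% and 39.5% in SPRET. Among peaks scored 118 to 421, PWK shares were 48.8% at the sites, 48.2% with p300 and SMAD4, 53.6% with SMAD4 alone and 45.3% at open sites with neither. In SPRET these were 39.3%, 40.1%, 25.0% and 35.0%. Sites that fell in EKO had a PWK peak at 13.8% (9.62 to 19.5%) and those that rose at 25.6% (18.8 to 33.7%), beside 24.8% (23.0 to 26.7%) of those not called. In SPRET the shares were 12.8%, 10.9% and 19.4%. The sites bound in both strains fell at 8 and rose at 3 of 178 tested, and those bound in neither fell at 146 and rose at 85 of 1538.

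SMAD4 peaks of the libraries labelled mutant were present at 176 of the sites (6.48%, 95% Wilson interval 5.62 to 7.47%), although the rule left no WT SMAD4 peak there. At sites with p300 and SMAD4 the share was 44.3%, with SMAD4 alone 25.8% and at open sites with neither 2.07%. Of the 168 that were tested, 15 rose in H3K27ac (8.93%, beside 8.68% of all tested windows) and 2 fell (1.19%, beside 7.56%), while of the 2190 tested sites without such a peak 114 rose (5.21%) and 186 fell (8.49%). At open sites with neither factor, 39 of the 156 tested sites with such a peak rose and 8 fell. Put the other way, 11.6% of the sites that rose (7.17 to 18.3%), 1.06% of those that fell (0.292 to 3.8%) and 7.40% of those not called carried one. Their median WT level was 83.6 tags, against 48.7 tags at the others.

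The 5 sites with the highest such SMAD4 scores were near Pag1 (150), Ccr1 (146), Pigv (135), Itpr2 (131) and Rnase10 (127). The Pag1 site, near an adaptor gene of lipid rafts, was one of the 2 that fell, from 253 and 166 tags in WT to 244 and 59.7 in EKO (−1.01 ± 0.18, limma adjusted p = 0.000368). The others changed by −0.33, 0.13, 0.03 and −0.54, with 0 called. The SMAD4 score ranked peaks within that list and was not compared with WT.

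**Figure D5:**
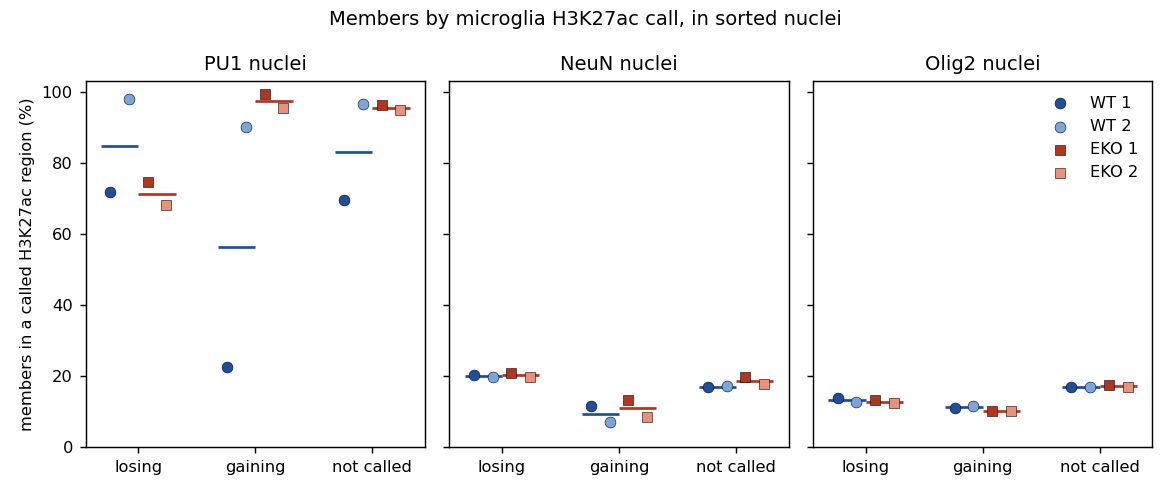
Share of the sites inside a called H3K27ac region of each library of PU1, NeuN and Olig2 nuclei, split by the call in microglia. Circles are WT and squares EKO libraries, and lines are group means. In PU1 nuclei the sites that fell are at 97.9% in WT library 2 and at 74.5% and 68.1% in EKO, and WT library 1 is below WT library 2 in each of the 3 PU1 groups.

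In PU1 nuclei, 59.6% and 91.9% of the sites lay in a called H3K27ac region in WT and 87.9% and 85.7% in EKO, for means of 75.7% ± 22.9 and 86.8% ± 1.5 (SD, n = 2 per group, exact permutation p = 1). PU1 WT library 1 had 11149 called regions against 25990 to 36057 in the others, and without it the difference turned from 11 to −5.14 percentage points. Of all SALL1 sites 39.4% and 73.7% lay in such regions in WT and 70.4% and 66.6% in EKO. In all 4 PU1 libraries 1549 sites were covered and in none 106.

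The nuclei libraries are separate from the microglia table, so coverage at the sites called there can be compared between genotypes. Of the 188 sites that fell, 71.8% and 97.9% were in PU1 regions in WT and 74.5% and 68.1% in EKO. Of the 129 that rose, 22.5% and 89.9% were covered in WT and 99.2% and 95.3% in EKO, so the groups did not overlap (exact permutation p = 0.333, the smallest possible), while at the sites that fell WT library 1 lay between the EKO libraries (exact permutation p = 0.667). Of the sites not called, 69.6% and 96.6% were covered in WT and 96.3% and 94.8% in EKO. Leaving out PU1 WT library 1, the sites that fell went from 97.9% to a mean of 71.3% and those that rose from 89.9% to 97.3%. A region in WT library 2 and in neither EKO library was found at 153 sites, of which 32 fell and 0 rose in microglia. A region in both EKO and neither WT library was found at 66, of which 11 rose and 1 fell. Over all tested sites 7.97% fell and 5.47% rose. PU1 WT library 1 had the fewest regions and was also low at the sites not called. How far its few regions enter the count of 66 was not tested.

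Of the 2715 sites, 940 (34.6%) lay in a called region of at least 1 NeuN or Olig2 library. In NeuN nuclei 16.2% and 15.9% of the sites lay in called regions in WT and 18.4% and 16.4% in EKO (exact permutation p = 0.333), and in Olig2 nuclei 15.2% in both WT libraries and 15.3% and 14.8% in EKO (exact permutation p = 1). Over all SALL1 sites these were 14.7 to 16.8% and 14.5 to 15.1%. The sites that fell were in NeuN regions at 20.2% and 19.7% in WT and 20.7% and 19.7% in EKO, and those that rose at 11.6% and 6.98% in WT and 13.2% and 8.53% in EKO. In Olig2 nuclei the sites that fell were at 13.8% and 12.8% in WT and 13.3% and 12.2% in EKO, and those that rose at 10.9% and 11.6% in WT and at 10.1% in both EKO libraries. Whether the genotype differences themselves differed between nuclei types was not tested.

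Motif shares were also counted by call, and C/EBP had the widest gap in percentage points. It was at 26 of the 129 sites that rose (20.2%), 18 of the 188 that fell (9.57%) and 13.5% of those not called. The PU.1-IRF composite was at 12.4%, 6.91% and 8.97% and MEF2 at 24.8%, 18.1% and 21.4% in the same order. MITF/TFE letters were at 1.55%, 4.26% and 2.25%. PU.1 shares lay between 15.6% and 17.1% in all 3 groups. These are shares of small groups of sites and carry no test.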

How the data were processed

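ChIP-seq reads were mapped by the authors to mm10 with Bowtie2, and HOMER made tag directories and called regions, with no tool versions in the submitters' processing notes. In the deposited microglia table the unit is H3K27ac signal: 133129 windows of 1000 bp, each with its tags brought to a total of 10000000 and its nearest gene as annotated by the authors. The deposited nuclei lists hold the regions called in each library with, per the file headers, their normalized tag signal and the fold ratio to input tags. The SALL1, SMAD4 and p300 lists hold the authors' enrichment score for peaks reproducible between libraries by IDR below 0.05, 1 list per group.

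A site took the overlapping window whose centre was nearest. Windows with a mean above 16 tags were tested on log2(tags + 1), quantile-normalized, using a trended prior variance in limma 3.58.1 (R 4.3.3, 2 residual degrees of freedom), and Benjamini-Hochberg adjustment ran over all 55285 windows. A pseudocount of 1 understates changes of low windows. On simulated data with the measured library levels, this fit recovered 38.2%, 84.5% and 87.8% of windows changed 2-fold, 4-fold and 8-fold, and the fit as deposited 0%. Only 55, 71 and 74 of 55285 windows were changed there, and recovery needed an estimated fold above 2. On the measured data the fit as deposited called 71 windows lower and 450 higher. The simulation therefore does not give the power for the measured data. No count model was run. Library depths came from the value of 1 tag, with 100% of values whole within 0.05 tags. The depth of the peak and nuclei lists is unknown. Features were taken from GENCODE vM21 and sequence from the RefSeq copy of GRCm38. Summaries used Python 3.11.15 with pandas 2.3.3 and scipy 1.17.1.

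Sites were named by rule. These were the 10 largest called changes in each direction whose EKO values lay on one side of WT on both scales (1 per nearest gene), up to 4 of smallest p per gene list, the 8 genes with most sites, the 5 highest scores for SALL1, p300 and SMAD4 of the libraries labelled mutant, and the sites at the limits of the rule. Sequences of Sall1 and Apoe were picked after their values were seen. The sequence of 1 further site is not reported here. The sites and gene lists were chosen with earlier results of these data known. Input samples were left out.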

Additional observations from a re-analysis of the deposited data

How the results depend on the processing

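Counts of sites that fell and rose (188 and 129) and their median change (−0.15) were recomputed under each alternative. As deposited they were 2, 4 and 0.15, so the median reversed. Median-ratio scaling gave 180 and 142 with a median of −0.14, and a pseudocount of 4 gave 172 and 121 with −0.14. Leaving out 1 library gave 0 to 94 falling, 0 to 40 rising and medians from −0.16 to −0.12. With SALL1 and p300 peaks above the median score of their lists the values were 95, 33 and −0.20 over 1440 tested sites, fewer by construction, with shares in PWK, SPRET and the SMAD4 list labelled mutant of 29.5%, 24.5% and 8.45%. Over 3000 bp from a start the median was −0.18. No filter on low windows (130 and 102), the window of highest level, the p300 cover and the SMAD4 distance left all counts within 1.5 times. Without PU1 WT replicate 1 the difference in PU1 nuclei reversed to −5.14 percentage points, and no other alternative turned it (7.14 to 12.8). The cause of these moves was not tested. With the replicate number as a block 201 fell and 136 rose, with a median of −0.15. Deviations of same-numbered libraries correlated at 0.036 after quantile normalization. This cannot show whether they were processed together, because the scaling removes shifts of whole libraries and the labels do not say. Of 60 named sites 32 were called, of which 26 lost their call as deposited, 32 without WT replicate 1, 32 without EKO replicate 1, 22 without WT replicate 2, 11 without EKO replicate 2 and 2 without the filter or with a pseudocount of 4. The replicate block and median-ratio scaling lost 0 calls among them. The count tests listed as alternatives (edgeR and DESeq2) were not run, because the check of whole tags could not judge libraries where 1 tag is worth close to 1. With 2 libraries per group a permutation cannot reach p below 0.333. Small changes can be missed, and the simulated recovery of 38.2% at 2-fold partly reflects the fold limit of the calls.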
